A study of Mus musculus with 8 samples.

Results

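Metallothioneins and the genes of zinc and copper handling were followed in MCE301 cells, a mouse colonic epithelial line, during exposure to 2 mM sodium butyrate, the salt of a bacterial fermentation product of the gut and an inhibitor of histone deacetylases. The line comes from transgenic mice with the large T-antigen of simian virus 40 in a temperature-sensitive form. The groups were 0, 6, 12 and 24 h with butyrate, with 2 arrays each, 8 in all; the T-antigen is shared by all of them. The 10 genes were chosen by their symbols, with the butyrate responses of this series already known, so their changes over time are given as a description and support nothing. They are Mt1, Mt2, Mtf1, Slc30a1, Atox1, Sco1, Sco2, Atp7a, Ccs and Cox17. The platform annotation gives 15 probe sets to 9 of them alone, out of 12393 genes with a probe set of their own, and none to Sco1. No untreated cells were sampled at 6, 12 or 24 h, so time in culture and butyrate cannot be told apart, and the 3 comparisons with 0 h share the same 0 h arrays.

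Metallothioneins are small cysteine-rich proteins that bind zinc and copper and buffer both. Their genes are switched on by MTF-1, the zinc finger protein encoded by Mtf1, which senses free zinc and binds metal response elements in promoters, and Slc30a1, the zinc exporter of the plasma membrane, is another of its targets in mouse. Copper that enters the cell is passed on by chaperones: Atox1 delivers it to the copper-transporting ATPase Atp7a in the secretory pathway, Ccs delivers it to superoxide dismutase, and Cox17, Sco1 and Sco2 pass it to cytochrome c oxidase in mitochondria. In the colon, the epithelium takes up and exports both metals, and metallothionein is made in the epithelial cells themselves.

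Metal response elements were looked for around the starts of the member genes because Mt1, Mt2 and Slc30a1 are known as targets of the same factor. Mt1 and Mt2 moved together, while Slc30a1 had low signals (49.1 to 153.1) and no called change. Whether its time course differs from theirs was not tested. RefSeq windows (build GRCm38.p6) of 250 bases before to 50 bases after the annotated start were found for 8 of the 10 genes, not for Ccs or Cox17. The core of the element was searched as TGCACNC and TGCGCNC on both strands, and the AP-1 site as TGACTCA and TGAGTCA, which are the 2 strands of 1 site. In the windows of Mt1 (chr8:94178839-94179138, plus strand), Mt2 (chr8:94172368-94172667, plus strand) and Slc30a1 (chr1:191906531-191906830, plus strand), capitals mark every match, and a match on the other strand appears as its reverse complement:
Mt1: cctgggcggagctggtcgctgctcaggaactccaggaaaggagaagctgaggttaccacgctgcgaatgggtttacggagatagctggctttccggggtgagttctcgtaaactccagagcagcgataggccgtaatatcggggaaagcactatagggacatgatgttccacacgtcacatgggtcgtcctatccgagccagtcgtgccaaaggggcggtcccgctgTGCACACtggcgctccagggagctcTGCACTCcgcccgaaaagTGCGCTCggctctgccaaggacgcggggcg
Mt2: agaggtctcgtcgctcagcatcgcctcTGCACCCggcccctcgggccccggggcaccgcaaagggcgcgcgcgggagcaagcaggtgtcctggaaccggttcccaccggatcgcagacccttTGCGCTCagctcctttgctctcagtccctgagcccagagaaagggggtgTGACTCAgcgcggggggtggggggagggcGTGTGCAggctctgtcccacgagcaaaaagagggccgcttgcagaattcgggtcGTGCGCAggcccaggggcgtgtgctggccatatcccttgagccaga
Slc30a1: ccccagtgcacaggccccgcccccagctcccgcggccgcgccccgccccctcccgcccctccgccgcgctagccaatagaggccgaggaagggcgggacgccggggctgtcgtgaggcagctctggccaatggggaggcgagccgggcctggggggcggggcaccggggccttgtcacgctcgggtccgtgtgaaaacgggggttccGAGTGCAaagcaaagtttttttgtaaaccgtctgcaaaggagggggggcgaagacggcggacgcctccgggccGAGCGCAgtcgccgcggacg

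Mt2 held 4 cores, Mt1 held 3, and Slc30a1 and Atp7a held 2 each. At least 4 cores were found in 0.517% of all 32851 windows, at least 3 in 1.97%, at least 2 in 7.11% and at least 1 in 25.7%. With the base before the start as -1 and the start as 1, the cores of Mt1 begin at -23, 3 and 21, those of Mt2 at -223, -128, -50 and 5, those of Slc30a1 at -43 and 31, and those of Atp7a at -132 and -120. Mtf1, Atox1, Sco1 and Sco2 had no match in their windows. An AP-1 sequence was found in the Mt2 window alone among the 8, at -79, against 5.2% of all windows, and no matches overlapped. The annotated start can differ from the start used in these cells, and a match of letters says nothing about binding.

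**Figure D1:**
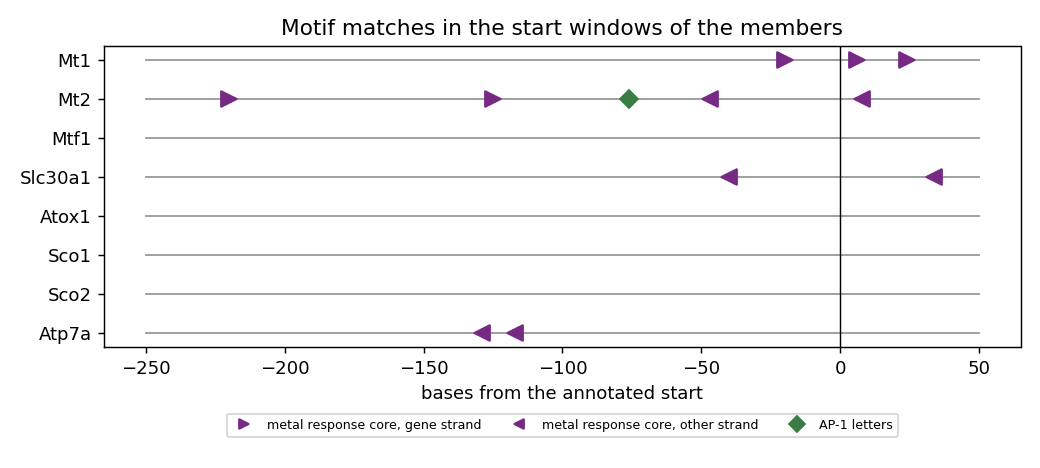
Positions of the metal response element cores (triangles, pointing right on the gene's strand and left on the other) and of the AP-1 letters (diamond) in the windows of 8 member genes, in bases from the annotated start. Mt2 carries 4 cores and the AP-1 letters, Mt1 carries 3 cores, Slc30a1 and Atp7a carry 2 each, and the other windows carry none.

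Every array had the same 2% trimmed mean signal, 500.2, and median signals were 140.1 to 152.8. Between 21.2% and 26.4% of an array's signals lay under 32, the pseudocount added before taking log2, and a signal there carries little information. All 6 epithelial markers examined (Epcam, Cdh1, Krt8, Krt18, Krt19 and Krt20) had signals above 144.7, the median of all values, on all 8 arrays, with a summed signal of 69223 to 86101 at 24 h, against 42208 to 45293 at 0 h. Of 5 intestinal markers, Cdx2 (mean 284.3 at 24 h, against 484.8 at 0 h) and Cdh17 (341.9 at 24 h, against 688.0 at 0 h) were above it and Vil1, Cdx1 and Lgals4 were not, and the summed intestinal signal was 714.3 to 716.0 at 24 h, against 1059 to 1529 at 0 h. Krt20, an epithelial marker, had a mean of 15290 at 24 h, against 1377 at 0 h. The fibroblast sum was 295.1 to 319.7 at 24 h, against 227.6 to 349.3 at 0 h, and the endothelial sum was 171.5 to 204.0 at 24 h, against 82.3 to 124.8 at 0 h. Of the 13 fibroblast, immune and endothelial markers, Csf1r alone was above 144.7 on all arrays, at a mean of 231.2 at 24 h, against 733.7 at 0 h. Ptprc, the marker of all leukocytes, was at 87.7 at 24 h, against 39.7 at 0 h, and Cd79a at 42.8, against 21.8. Lyz2 was at 64.1 at 24 h, against 78.1 at 0 h, and Cd3e at 15.6, against 12.75. Each of these was under the filter on all arrays. The summed immune signal, most of it from Csf1r at 0 h, was 392.6 to 490.0 at 24 h, against 723.6 to 1048 at 0 h. The part of these marker changes in the results was not tested. Signals are per amount of labelled RNA, so fewer cells that express a gene and less of its RNA per cell cannot be told apart. A gene is called changed at an adjusted p under 0.05 (limma, Benjamini-Hochberg over 7340 genes).

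Over the exposure, both metallothionein genes and the copper genes Atp7a and Atox1 were higher, Cox17 was called higher at 24 h, and Sco2 was lower from 6 h on. At 6 h, 2 members (Mt1 and Mt2) were called higher and 1 (Sco2) lower, beside 9.06% of all genes called higher and 6.68% lower. With the replicate number as a block, which pairs the arrays, 5 members were called at 6 h, Atp7a and Atox1 being added. At 12 h, 5 members (Mt1, Mt2, Mtf1, Atp7a and Atox1) were called higher and Sco2 lower, beside calls for 18.1% (higher) and 17.5% (lower) of all genes. At 24 h, 5 (Mt1, Mt2, Atp7a, Atox1 and Cox17) were called higher and Sco2 lower, beside 24.6% and 23.5% of all genes. The median log2 change of the 9 measured members was 0.53, 0.73 and 0.96 at 6, 12 and 24 h, beside 0.01, 0.03 and 0.04 over all genes tested. Because the members were picked from a list with these contrasts known, nothing is read from those counts and medians.

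**Figure D2:**
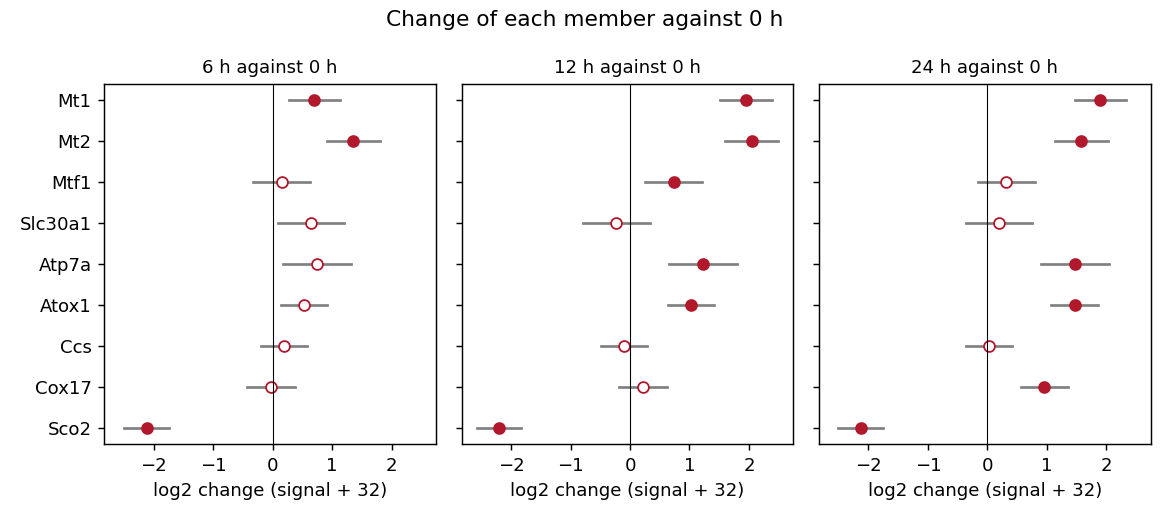
Log2 change of signal + 32 against 0 h for the 9 measured members at 6, 12 and 24 h (points, with 95% intervals from limma); filled points are called at an adjusted p under 0.05 over all genes. Sco2 lies near -2 at all 3 times, Mt1 and Mt2 near 2 at 12 h, and Ccs near 0 throughout.

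Mt1 (probe set 1422557_s_at) encodes metallothionein-1. Its signals were 2549.7 and 1738.5 at 0 h, 3399.6 and 3479 at 6 h, 7899 and 8568 at 12 h, and 7398 and 8533 at 24 h. All 6 later arrays lay above both 0 h arrays, and the 12 and 24 h arrays lay above the 6 h arrays and overlapped each other. The log2 change was 0.70 ± 0.20 (SE) at 6 h, 1.95 ± 0.20 at 12 h and 1.90 ± 0.20 at 24 h. The 12 h level was 3.86-fold that at 0 h. The change at 6 h was 0.43 without 0 h replicate 2 and was then not called, nor was it without either 6 h array.

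Mt2 (1428942_at) encodes metallothionein-2, whose gene lies beside Mt1 on chromosome 8. It had signals of 892.4 and 619.3 at 0 h, 1954 and 1945.5 at 6 h, 3255 and 3082 at 12 h, and 2615 and 2006 at 24 h. All later arrays were again above both 0 h arrays, the highest were those at 12 h, and the 24 h arrays were lower than those at 12 h without overlap. The log2 changes against 0 h were 1.35 ± 0.20, 2.04 ± 0.20 and 1.58 ± 0.20 at 6, 12 and 24 h, so the 6 h level was already 2.55-fold that at 0 h. Over the 8 arrays, Mt1 and Mt2 had a Pearson correlation of log2(signal + 32) of 0.891, which describes points that share arrays and times.

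Between neighbouring times, Mt1 was the only member called at 12 h against 6 h (log2 change 1.25 ± 0.20), beside 2.03% of all genes higher and 2.14% lower. This call was lost without any 1 of the 4 arrays compared. Mt2 was at 0.69 ± 0.20 in the same comparison and was called with the replicate number as a block, which gave 2 members. At 24 h against 12 h the log2 differences were -0.05 ± 0.20 for Mt1 and -0.46 ± 0.20 for Mt2, neither called.

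The other probe set of Mt1 (1451612_at) stayed between 7.9 and 55.3 on all 8 arrays, under the filter, and its course differed. Its log2 changes against 0 h were 0.53, 0.39 and 0.08 at 6, 12 and 24 h on signals near the pseudocount. The suffix _s_at marks probe sets whose probes match more than 1 transcript, and the metallothionein genes are close relatives, so the share of the Mt1 signal that comes from related transcripts was not tested.

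Mtf1, the metal-sensing activator of both genes, was low on all arrays. Its signals (1418333_at) were 85.3 and 108.6 at 0 h, 83.1 and 145.6 at 6 h, 168.6 and 194.9 at 12 h, and 116.4 and 140.2 at 24 h. The 12 h arrays were the highest and overlapped no other time, while the 6 h arrays spread across the 0 h values. The log2 change was 0.15 ± 0.22 at 6 h, 0.73 ± 0.22 at 12 h and 0.32 ± 0.22 at 24 h, with a call at 12 h only. That call was lost without 0 h replicate 1 or either 12 h array, and with no filter on low values. Of the 8 arrays, 3 exceeded the filter, 2 of them at 12 h. Mtf1 would not have passed the filter without its 12 h arrays, so its call there is not support for a rise. The second probe set (1429170_a_at), at 64 to 110.4, was under the filter and had a log2 change of 0.21 at 12 h.

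Slc30a1 (1422786_at), the zinc exporter, was highest at 6 h. It had signals of 59.6 and 118.7 at 0 h, 153.1 and 150.3 at 6 h, 91.6 and 49.1 at 12 h, and 103.2 and 102.5 at 24 h. Both 6 h arrays were above all others, and the arrays at 12 and 24 h fell within or near the wide 0 h range. It passed the filter through its 6 h arrays alone. The log2 changes of 0.64 (95% interval 0.08 to 1.20), -0.23 (-0.79 to 0.33) and 0.20 (-0.36 to 0.76) at 6, 12 and 24 h were not called, and intervals of this width include changes of over 1.5-fold. The Pearson correlation over the 8 arrays was -0.325 with Mt1 and -0.101 with Mt2.

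**Figure D3:**
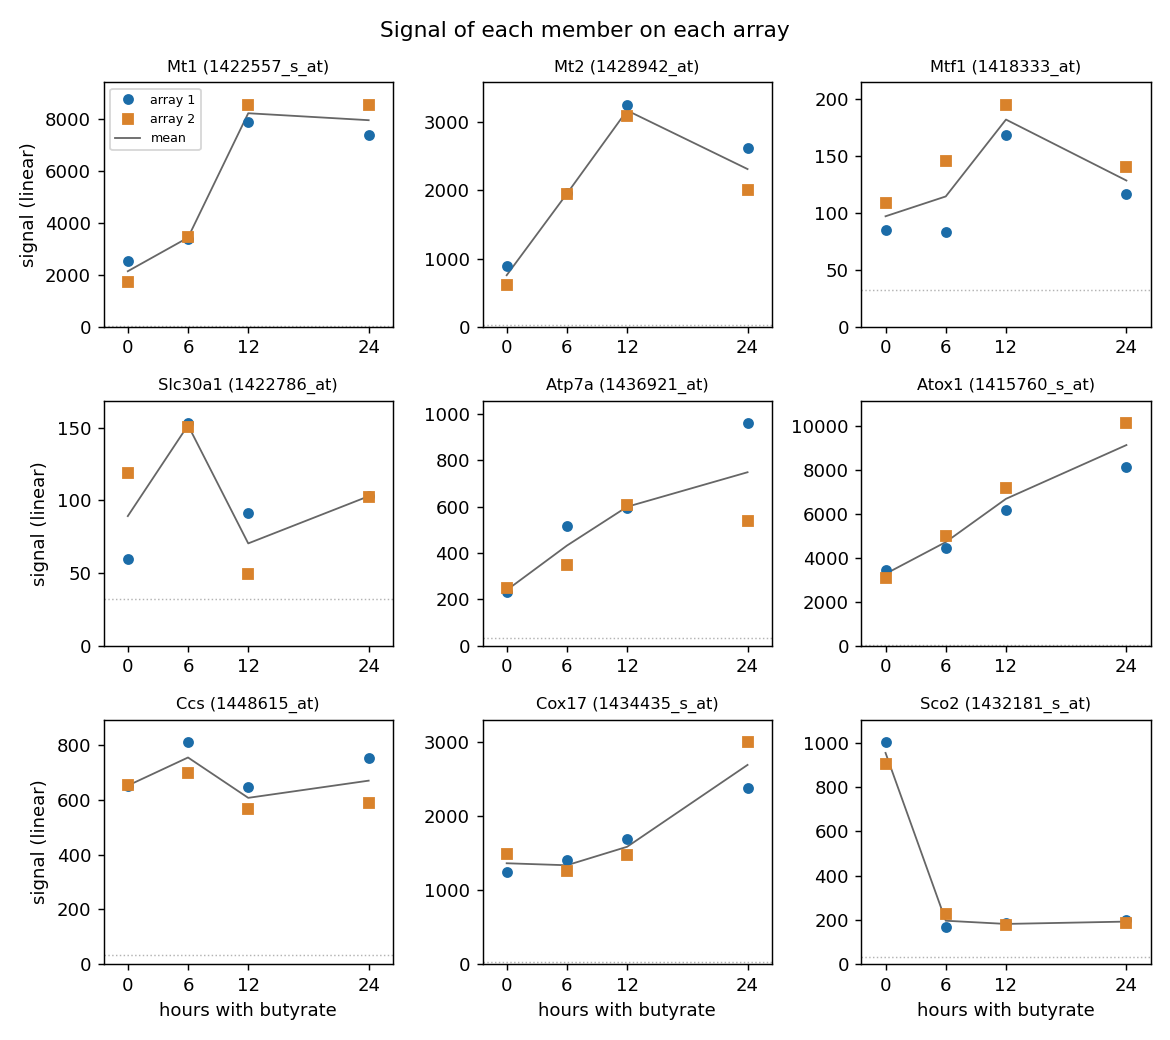
Linear signal of each of the 9 measured members on each array (points; circle, array 1; square, array 2) and the mean of the 2 arrays of a time (line) at 0, 6, 12 and 24 h; the dotted line marks the pseudocount of 32. The Mt1 arrays at 12 and 24 h lie between 7398 and 8568, and Sco2 lies near 200 from 6 h on. The means of Atox1 and Atp7a climb through 24 h, but the 24 h arrays of Atp7a spread around those at 12 h.

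Of the copper genes outside mitochondria, Atp7a, the ATPase that loads copper into the secretory pathway and exports it, was higher at 12 and 24 h. Its signals (1436921_at) were 231.8 and 246.4 at 0 h, 517.3 and 345.6 at 6 h, 591.9 and 606.3 at 12 h, and 959.7 and 536.7 at 24 h. Every later array was above both 0 h arrays, and the 24 h arrays spread around those at 12 h. The log2 changes were 0.75 ± 0.26 at 6 h (not called), 1.22 ± 0.26 at 12 h and 1.47 ± 0.26 at 24 h. The second one (1418774_a_at) had log2 changes of 0.80, 0.88 and 1.11, called at all 3 times where every kept probe set was tested, and its later arrays (328.8 to 487.8) were likewise all above those at 0 h (173 and 215.2).

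Atox1, the chaperone that brings copper to Atp7a, had signals (1415760_s_at) of 3468 and 3072 at 0 h, 4431 and 5005 at 6 h, 6187 and 7194 at 12 h, and 8149 and 10137 at 24 h. By this probe set the 4 times did not overlap, and each later time was above the one before it. The log2 change was 0.52 ± 0.18 at 6 h (not called), 1.02 ± 0.18 at 12 h and 1.47 ± 0.18 at 24 h, 2.77-fold for the last. The steps of 0.50 ± 0.18 at 12 h against 6 h and 0.44 ± 0.18 at 24 h against 12 h were not called. Another of its probe sets (1460639_a_at) gave 0.56, 0.82 and 1.32 against 0 h. Its 6 h arrays (6017.5 and 4216.6) overlapped those at 12 h (6549.9 and 5561), so the steps were not separate there. The third (1460640_at) stayed between 4 and 45.5, too low to read. The first carries the _s_at suffix, and the share of its signal from other transcripts was not tested.

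Ccs (1448615_at), which loads copper into superoxide dismutase, stayed near its starting level. Its signals were 650.0 and 653.9 at 0 h, 811.2 and 697.7 at 6 h, 648 and 566.4 at 12 h, and 752.8 and 587.1 at 24 h. The 6 h arrays were the highest on average and the 12 h arrays lay just under those at 0 h. The log2 changes were 0.20 (95% interval -0.19 to 0.58), -0.10 (-0.49 to 0.29) and 0.03 (-0.36 to 0.41) at 6, 12 and 24 h, and none was called.

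Among the mitochondrial copper genes, Sco2 was called lower from 6 h on, and Cox17 was called higher at 24 h only. Sco2 (1432181_s_at), which helps insert copper into cytochrome c oxidase, had signals of 1003 and 904 at 0 h, 167.8 and 224.8 at 6 h, 185.4 and 178.3 at 12 h, and 198.7 and 186.1 at 24 h. All 6 later arrays lay far under both 0 h arrays and close to each other. The mean signal at 6 h was 20.6% of that at 0 h, with log2 changes of -2.12 ± 0.17, -2.20 ± 0.17 and -2.13 ± 0.17 at 6, 12 and 24 h. The later times differed from each other by -0.08 (95% interval -0.46 to 0.29) for 12 h against 6 h and 0.07 (-0.31 to 0.45) for 24 h against 12 h.

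Sco2 overlaps Tymp, the gene of thymidine phosphorylase, and Ncaph2 in RefSeq (GRCm38.p6). The Sco2 probe set also carries the _s_at suffix, so whether the fall lies in Sco2 or in overlapping transcripts was not tested.

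Cox17 (1434435_s_at), which hands copper to the Sco proteins, had signals of 1245 and 1486 at 0 h, 1416 and 1262 at 6 h, 1699.8 and 1477 at 12 h, and 2385 and 3006 at 24 h. The 0 h arrays overlapped those at 6 h and those at 12 h, and both 24 h arrays were above all others. The log2 change was -0.02 ± 0.18 at 6 h, 0.22 ± 0.18 at 12 h and 0.96 ± 0.18 at 24 h, the last a 1.95-fold level. Cox17 was the only member called at 24 h against 12 h (0.75 ± 0.18), beside 1.81% of all genes higher and 3.58% lower, a call lost without any 1 of the 0, 12 or 24 h arrays. Its second probe set (1434871_at) stayed between 2.5 and 8.8, so the rise rests on the first alone. That one carries the _s_at suffix, and the share of its signal from other transcripts was not tested.

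**Figure D4:**
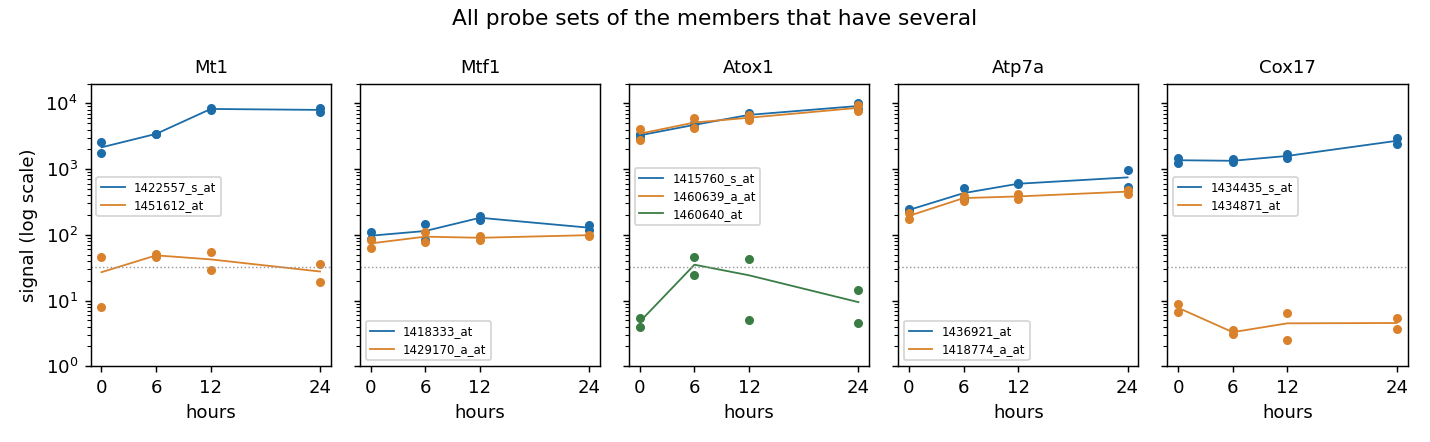
Signals (log scale; points, arrays; lines, means) of all probe sets of the 5 members that have several, at 0, 6, 12 and 24 h, with the pseudocount of 32 dotted. The 2 Atp7a probe sets run together, as do the upper 2 of Atox1, while the lower probe sets of Mt1, Atox1 and Cox17 lie near or under the pseudocount.

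Genes of the same pathways that were not members were taken from 4 lists with 89 genes, of which 72 had a probe set of their own and 49 were tested. Of them, 3 were called higher and 1 lower at 6 h, 9 and 5 at 12 h, and 13 and 3 at 24 h. Over all genes, calls stood at 9.06% (higher) and 6.68% (lower) at 6 h, 18.1% and 17.5% at 12 h, and 24.6% and 23.5% at 24 h. The higher calls lay near these shares at each time, while the lower calls lay under them, with 3 of 49 at 24 h. Whether the lists differ from all genes was not tested, and nothing particular to these genes is read from the calls. The median log2 change of the listed genes was -0.02, 0.16 and 0.21 at these times, beside 0.01, 0.03 and 0.04 over all genes tested. With the replicate number as a block, 8 were called at 6 h, the additions being Slc30a4, Slc30a9, Slc39a9 and, lower, Coa7. It added Slc31a1 (higher), Slc39a13 and Coa7 (both lower) at 12 and 24 h, Slc39a6 (lower) at 12 h, and Slc30a9 (higher), Cp and Coa3 (both lower) at 24 h.

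Of 15 zinc transporters and other metallothioneins tested, 4 were called higher and 2 lower at 12 h, and 5 higher and 1 lower at 24 h, Mt3 being among the higher ones at both times, with median log2 changes of 0.08 and 0.12, beside 18.1% higher and 17.5% lower of all genes at 12 h and 24.6% and 23.5% at 24 h. At 6 h limma called 0 of the 15, and 2 had an unadjusted p under 0.05. Slc30a4, which moves zinc into vesicles, was at 4178 and 3433 at 24 h, against 2308 and 1618 at 0 h (log2 change 0.96 ± 0.21, adjusted p = 0.00341). Slc30a3, known for loading zinc into synaptic vesicles, was at 569.9 and 431.9 at 24 h, against 203 and 211.9 at 0 h (1.14 ± 0.17, adjusted p = 0.000454). In both, the 24 h arrays were all above those at 0 h.

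Mt3, the metallothionein best known from brain, was at 168.5 and 153.7 at 24 h, against 36.3 and 47.5 at 0 h (log2 change 1.39 ± 0.22). It passed the filter through its 24 h arrays alone, so its call there is not support for a rise; with no filter on low values the adjusted p was 0.00556 at 24 h and 0.129 at 12 h (limma). Slc39a11, a zinc importer, rose by a log2 change of 0.55 at 24 h (adjusted p = 0.0358), and was not called without 0 h replicate 2 or 24 h replicate 1 (log2 changes of 0.36 and 0.35). At 12 h the genes called higher were Slc30a3 (0.83), Slc30a9 (0.80), Slc30a4 (0.77) and Mt3 (0.62), of which Slc30a3 alone was called under all alternatives run. The calls of Slc30a9 and Slc30a4 were lost without 0 h replicate 2 or 12 h replicate 1, that of Slc30a9 also without 12 h replicate 2, and that of Mt3 without any 1 of the 0 or 12 h arrays. The fallers were Slc39a14, a plasma membrane importer of zinc and other metals, at 12 h (log2 change -0.86 ± 0.21, adjusted p = 0.00909; its second kept probe set was at -0.40, not called), Slc39a3 at 12 h (-0.45, adjusted p = 0.0489) and Slc39a7, which releases zinc from the endoplasmic reticulum, at 24 h (-0.48, adjusted p = 0.0452). Each of these 3 calls was lost without at least 1 array, among them 0 h replicate 2 and 12 h replicate 2 for Slc39a14 (adjusted p = 0.0536 and 0.0541), any 1 of the 8 arrays for Slc39a3, and 0 h replicate 1 (log2 change -0.31) or any 1 of the 12 or 24 h arrays for Slc39a7.

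Of 8 tested genes of copper transport and copper enzymes, none was called higher, beside 9.06%, 18.1% and 24.6% of all genes at 6, 12 and 24 h. At 12 h 2 were called lower and at 24 h 1, where 17.5% and 23.5% of all genes were called lower. At 6 h limma called 0 of 8, with 1 at an unadjusted p under 0.05. Steap1, of a family of membrane metalloreductases, was at 1608 and 1413 at 24 h, against 2520.1 and 2331 at 0 h (log2 change -0.67 ± 0.15, adjusted p = 0.00466), and its second kept probe set was called lower as well (-0.91). At 12 h Steap1 was at -0.54 (adjusted p = 0.0197; not called without either 0 h array or either 12 h array). Cp, encoding the copper oxidase ceruloplasmin, was at 95.4 and 20.4 at 12 h, against 173.7 and 108.6 at 0 h (-1.06 ± 0.35, adjusted p = 0.039), and the change was -0.42 without 12 h replicate 2 and -0.78 without 0 h replicate 1, neither called, nor was it without 0 h replicate 2 (-1.33). The copper importer Slc31a1 had log2 changes of 0.38 at 12 h and 0.37 at 24 h. It was called at both with the replicate number as a block (adjusted p = 0.0491 and 0.0434, limma), and under no other alternative run. Its second kept probe set was at 0.21 at 12 h and 0.27 at 24 h, not called.

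Among 15 tested assembly factors of cytochrome c oxidase, 3 rose and 1 fell at both 6 and 12 h, and 5 rose and 1 fell at 24 h, beside 9.06%, 18.1% and 24.6% of all genes called higher and 6.68%, 17.5% and 23.5% lower at 6, 12 and 24 h, while the list's median stayed at -0.05, -0.01 and -0.08. The 3 called higher at every time were Cox19, Chchd7 and Cmc2. Cox19 works with copper delivery in mitochondria. It was at 2431 and 2391 at 24 h, against 910.4 and 938.7 at 0 h (log2 change 1.35 ± 0.20, adjusted p = 0.000432, limma). Chchd7 was at 503.4 and 567.5 at 24 h, against 180.9 and 206 at 0 h (1.33 ± 0.16, adjusted p = 9.77e-05), and had reached a log2 change of 1.23 by 6 h (adjusted p = 0.00135). Cmc2 was at 816.3 and 933.7 at 24 h, against 354.7 and 306 at 0 h (1.32 ± 0.19, adjusted p = 0.000326). Its other kept probe sets disagreed in size, at 0.85 (called) and 0.28 (not called) at 24 h, and neither was called at 6 h (0.48 and 0.36). In all 3 genes, by the brightest probe set, the 24 h arrays were above both 0 h arrays.

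The 6 h changes of Cmc2 (0.81, adjusted p = 0.0183) and Cox19 (0.69, adjusted p = 0.044) were not called without 6 h replicate 1 or either 0 h array, nor was that of Cmc2 without 6 h replicate 2 or that of Cox19 without either 24 h array. Cox19 was at 0.48 without 6 h replicate 1. Pet100, another assembly factor, rose by a log2 change of 0.67 at 24 h (adjusted p = 0.0058). Cox15 was not called by its brightest probe set (0.26 at 24 h). Of its other kept probe sets, 1 was called higher at 24 h (0.50) and the rest were not (0.39 and 0.52). Coa3, an assembly factor of the inner membrane, was at 2328 and 2566 at 12 h, against 4655 and 5094 at 0 h (-0.99 ± 0.16, adjusted p = 0.00104), with its second kept probe set at -1.16. It was called at 6 h (-0.54, adjusted p = 0.0418), though not without any 1 of the 8 arrays. Its second probe set was at -0.25 at 6 h, not called. At 24 h it was at -0.40 (not called), with calls under 5 alternatives, among them the replicate number as a block (adjusted p = 0.0353). Cox16 was lower at 24 h (-0.48, adjusted p = 0.044), a call lost without any 1 of the 0, 12 or 24 h arrays.

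Of 11 tested subunits of cytochrome c oxidase itself, by the brightest probe set of each, 2 were called higher at 12 h and 3 at 24 h, and none lower, beside 18.1% and 24.6% of all genes called higher. Where every kept probe set was tested, another one of Cox6a1 (log2 change 0.90), Cox6b1 (0.48) and Cox7a2 (0.50) was called higher at 24 h. That of Cox6a1 was also called at 12 h (0.51). The brightest ones of these genes were not called at 24 h (0.34, 0.31 and 0.27). No kept probe set of Cox5a, Cox5b, Cox6c or Cox8a was called. At 6 h limma called 0 of 11, with 1 at an unadjusted p under 0.05. Cox7a1, the isoform of heart and muscle, was at 217 and 213.4 at 24 h, against 25.7 and 34.9 at 0 h (log2 change 1.99 ± 0.18). It passed the filter through its 24 h arrays alone, so its calls are not support for a rise; with no filter on low values the adjusted p was 0.000544 at 24 h and 0.0119 at 12 h (limma). Cox7a2l, a factor of respiratory supercomplexes, was at 7025 and 5735 at 24 h, against 2817 and 2669 at 0 h (1.20 ± 0.17, adjusted p = 0.000286), and both of its other kept probe sets were called higher as well. Ndufa4 rose by a log2 change of 0.49 at 24 h (adjusted p = 0.0208), not called without any 1 of the 0 or 24 h arrays. At 12 h Cox7a1 was at a log2 change of 1.02 and Cox7a2l at 0.63 (adjusted p = 0.0152; not called without either 0 h array or 12 h replicate 1).

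**Figure D5:**
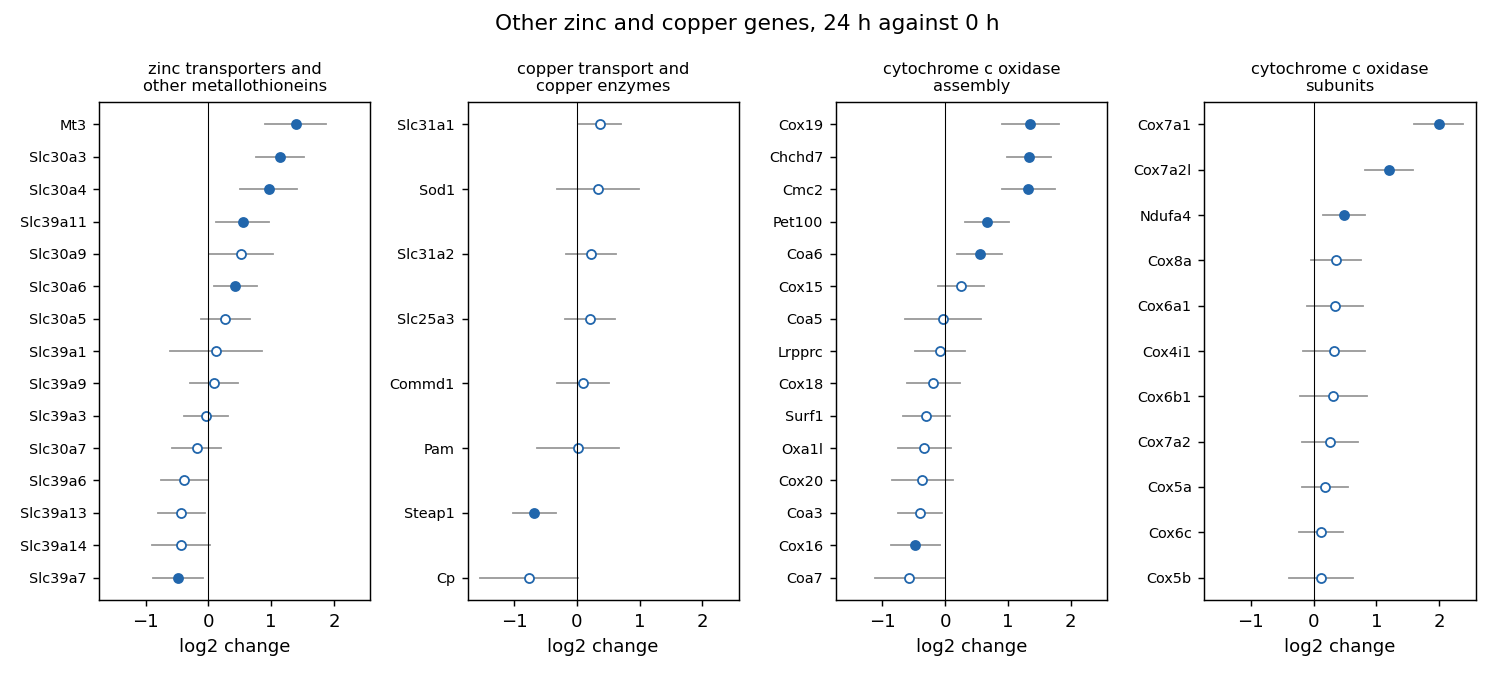
Log2 change of signal + 32 at 24 h against 0 h (points, with 95% intervals from limma) for the 49 tested genes of the 4 lists; filled points are called at an adjusted p under 0.05 over all genes. Cox19, Chchd7 and Cmc2 lie above 1 among the assembly factors, and Steap1 is the called gene among the copper genes, below 0.

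The genes with a time course most like that of Mt1, by the Pearson correlation of log2(signal + 32) over the 8 arrays, were Cnp (0.993), Dusp1 (0.99), Tmem30a (0.988), Mindy3 (0.985) and Gnai1 (0.983). Those most like Sco2 were Nupr1 (0.99), Bcl7b (0.99), Zbtb1 (0.984), Ifit2 (0.983) and Rev1 (0.982). These values describe 8 arrays in 4 times, where any gene with the same steps scores high.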

How the data were processed

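Total RNA of MCE301 cells was measured on Affymetrix 430A mouse arrays, per the labels. The deposited table holds 1 linear intensity (signal) for each of 22690 probe sets and 8 arrays, with equal 2% trimmed means (500.2), so the authors' values had been scaled. Which software summarised the probes was not given in the sources used here. Control probe sets (64) were left out, and probe sets were named from the platform annotation where it gives 1 gene (20380). Probe sets with at least 2 arrays above 144.7, the median of all values, were kept, and the brightest on average stood for its gene, leaving 7340 genes. Log2(signal + 32) of all arrays was fitted by time in limma 3.58.1 (R 4.3.3; lmFit, eBayes; residual df 4, prior df 6.37), with Benjamini-Hochberg adjustment over the 7340 genes. Log2 changes are on that scale, with standard errors from the fit, and understate changes of low signals.

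The members, lists and tests were chosen with earlier results of these data known. All members and their probe sets are named, and in each list up to 4 called genes with the largest change in each direction, plus the 5 genes most like Mt1 and Sco2. Slc31a1, Coa3 at 24 h, the genes called only with the block, and those named only for their other probe sets were named after their values were seen. Nothing in the labels says whether a time's 2 arrays are separate cultures; p-values therefore measure only array spread, possibly technical. Across genes, array 1 minus array 2 correlated at 0.125 to 0.382 in each of the 6 pairings of times, so the replicate numbers may pair the arrays. The main fit had no term for such a pairing, so its standard errors, intervals and calls ignore it. Calls from a fit with the replicate number as a block are given separately. For arrays, their number limits the precision. Promoter windows come from RefSeq (GRCm38.p6).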

Additional observations from a re-analysis of the deposited data

How the results depend on the processing

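Under the 17 alternatives, 13 of the 15 called member changes against 0 h stayed called with the same sign where they could be fitted; the exceptions were Mt1 at 6 h and Mtf1 at 12 h. Of 32 named changes of list genes, 17 stayed called. With the replicate number as a block, 5 members were called at 6 h (3 without it), 2 at 12 h against 6 h (1 without it), and 8 list genes at 6 h (4 without it). Between neighbouring times it called 2 list genes at 12 h against 6 h (0 without it) and 5 at 24 h against 12 h (1 without it), and it moved no other count of members or list genes by over 1.5 times. With no filter on low values, which tests more genes, the list genes called were 1 at 6 h and 8 at 12 h (14 with the filter), and no member was called between neighbouring times (0 at 12 h against 6 h and 0 at 24 h against 12 h). A pseudocount of 8 and testing of every kept probe set each gave 2 list genes at 6 h and 0 members at 24 h against 12 h; the cause was not tested.

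Without 1 array at a time, list genes called ranged from 1 to 3 at 6 h, 6 to 14 at 12 h (6 without 0 h replicate 2, 8 without either 12 h array, 9 without 0 h replicate 1) and 10 to 17 at 24 h (10 without 24 h replicate 1), and members between neighbouring times from 0 to 1. Changes that were not called changed sign without 1 array: Mtf1 at 6 h (-0.16 to 0.47), Cox17 at 6 h (-0.15 to 0.10), Slc30a1 at 12 h (-0.59 to 0.13) and 24 h (-0.16 to 0.56), and Ccs at 24 h (-0.14 to 0.20). A stricter filter (2 arrays above 300), quantile normalization, a trend and robust eBayes, a pseudocount of 100 and the 4 arrays compared alone moved no count of called members, or of list genes called against 0 h, by over 1.5 times. Signals near 32 (lower probe sets of Mt1, Atox1 and Cox17) are limited by background.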
